A study of Mus musculus with 8 samples.

Results

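The genes described here encode the enzymes of upper glycolysis, from the phosphorylation of glucose to the interconversion of the triose phosphates. They were taken from the expression table by gene name, and the 10 symbols (Hk1, Hk2, Hk3, Gpi1, Pfkl, Pfkm, Pfkp, Aldoa, Aldoc and Tpi1) matched 11 of its 56748 rows, because Aldoa named 2 rows. The series holds RNA sequencing of 32D cells, an interleukin-3 (IL-3) dependent mouse cell line labelled as myeloblast-like bone marrow cells. In the 4 groups the cells expressed Jak2WT or the activated kinase Jak2V617F, and in each background the glucose transporters GLUT1 and GLUT3 were either intact (GLUT1/3 WT) or both knocked out by CRISPR (GLUT1/3 dKO, genes Slc2a1 and Slc2a3). Each group held 2 libraries, clone 1 and clone 3, and each clone descends from a single cell. With so few clones, features of a clone cannot be told apart from those of its genotype. The study describes a round of single-cell dilution before editing, and all dKO clones of a background carry a GLUT1 deletion of the same size. Clones of a background may therefore share a founder, and p-values below measure the spread between such clones. Features of a founder cannot be told apart from those of a background or a dKO genotype. Before RNA was taken, all cells spent 24 h in pyruvate-free RPMI-1640 holding glucose at 5 mM, glutamine at 1 mM and IL-3 at 2 ng/ml.

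Glycolysis begins when a hexokinase traps glucose in the cell as glucose 6-phosphate. Glucose-6-phosphate isomerase (Gpi1) turns this into fructose 6-phosphate, phosphofructokinase adds a further phosphate in the committed step of the pathway, aldolase splits the product, and triosephosphate isomerase (Tpi1) makes both products usable by the lower pathway. Several steps can be run by alternative isoforms: Hk1 is the widely expressed hexokinase, Hk2 is known as the inducible one, and Hk3 is found mainly in blood cells of the myeloid lineage. Phosphofructokinase is a tetramer of the liver (Pfkl), muscle (Pfkm) and platelet (Pfkp) subunits, and of the aldolases Aldoa is broadly expressed and Aldoc is best known from the brain. Many of these genes are known targets of the transcription factors HIF-1 and Myc.

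Between 16846011 and 48884329 reads on genes stood behind a library, and 4048 or more of them were on each of Hk1, Hk2, Gpi1, Pfkl, Pfkp, Aldoa and Tpi1 in every library, so that counting error was small for these genes. Slc2a1 was between 44.7 and 64.0 FPKM (fragments scaled to gene length and library total) in GLUT1/3 WT clones and between 9.17 and 17.3 FPKM in dKO clones. Slc2a3 was between 91.9 and 198 FPKM in GLUT1/3 WT clones and between 16.0 and 49.5 FPKM in dKO clones, so neither transcript was at 0 in a dKO clone. Defining genes of myeloid cells were partly absent: Cebpa was at 0 in all libraries and Mpo did not exceed 0.0885 FPKM, Elane 0.121, Ctsg 0.203 and Itgam 0.532 FPKM, while Csf2rb, Spi1 and Prtn3 were at 3.11 FPKM or more in every library. The 9 myeloid markers summed to 191 to 218 FPKM in Jak2WT GLUT1/3 WT, 139 to 175 in Jak2WT dKO, 158 to 159 in Jak2V617F GLUT1/3 WT and 71.9 to 74.6 in Jak2V617F dKO clones. Of 9 erythroid markers, 6 reached 1 FPKM in a clone of every group but Jak2WT GLUT1/3 WT, where 4 did. Their summed level was 94.0 to 112 FPKM in Jak2WT GLUT1/3 WT, 246 to 290 in Jak2WT dKO, 551 to 910 in Jak2V617F GLUT1/3 WT and 2578 to 4665 in Jak2V617F dKO clones, while Slc4a1 did not exceed 0.312 FPKM. The 4 megakaryocyte markers summed to 63.2 to 63.7, 85.3 to 90.2, 177 to 189 and 187 to 240 FPKM in the same order of groups. Single genes carried these sums, namely Csf2rb (48.9 to 190 FPKM) for the myeloid, Hbb-bs (0.0329 to 2209 FPKM) and Hba-a1 (46.7 to 2007 FPKM) for the erythroid and Itga2b (61.3 to 184 FPKM) for the megakaryocyte list. Other members went another way, as Gata1 was lower in dKO clones with Jak2V617F (-0.50, adjusted p = 0.0246) and Prtn3 overlapped between the backgrounds. The sums of the lists moved with the groups, and the part of such cells in the results below was not tested.

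Per unit of gene length, Aldoa was the most abundant of these transcripts in each library (311 to 959 FPKM), followed by Tpi1 (212 to 578 FPKM). Aldoc lay at the other end, at 0.0858 to 0.335 FPKM from 6 to 38 reads. Aldoc did not reach 1 FPKM in any library and was not tested, and the second row named Aldoa passed the filter of at least 1 FPKM in at least 2 libraries only through the 3 libraries where it is high. Its values below are therefore a description, although the counts and medians of rows include it. This left 10 rows among 11818 genes tested with limma on log2(FPKM + 1), in which p-values reflect the spread between clones. A level here is per cell population, in which fewer cells of a type and less RNA per cell cannot be told apart. FPKM values are relative to the other transcripts of a library and do not measure protein or flux. The plot of FPKM by clone shows the 9 rows that were well above the filter in every library.

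**Figure D1:**
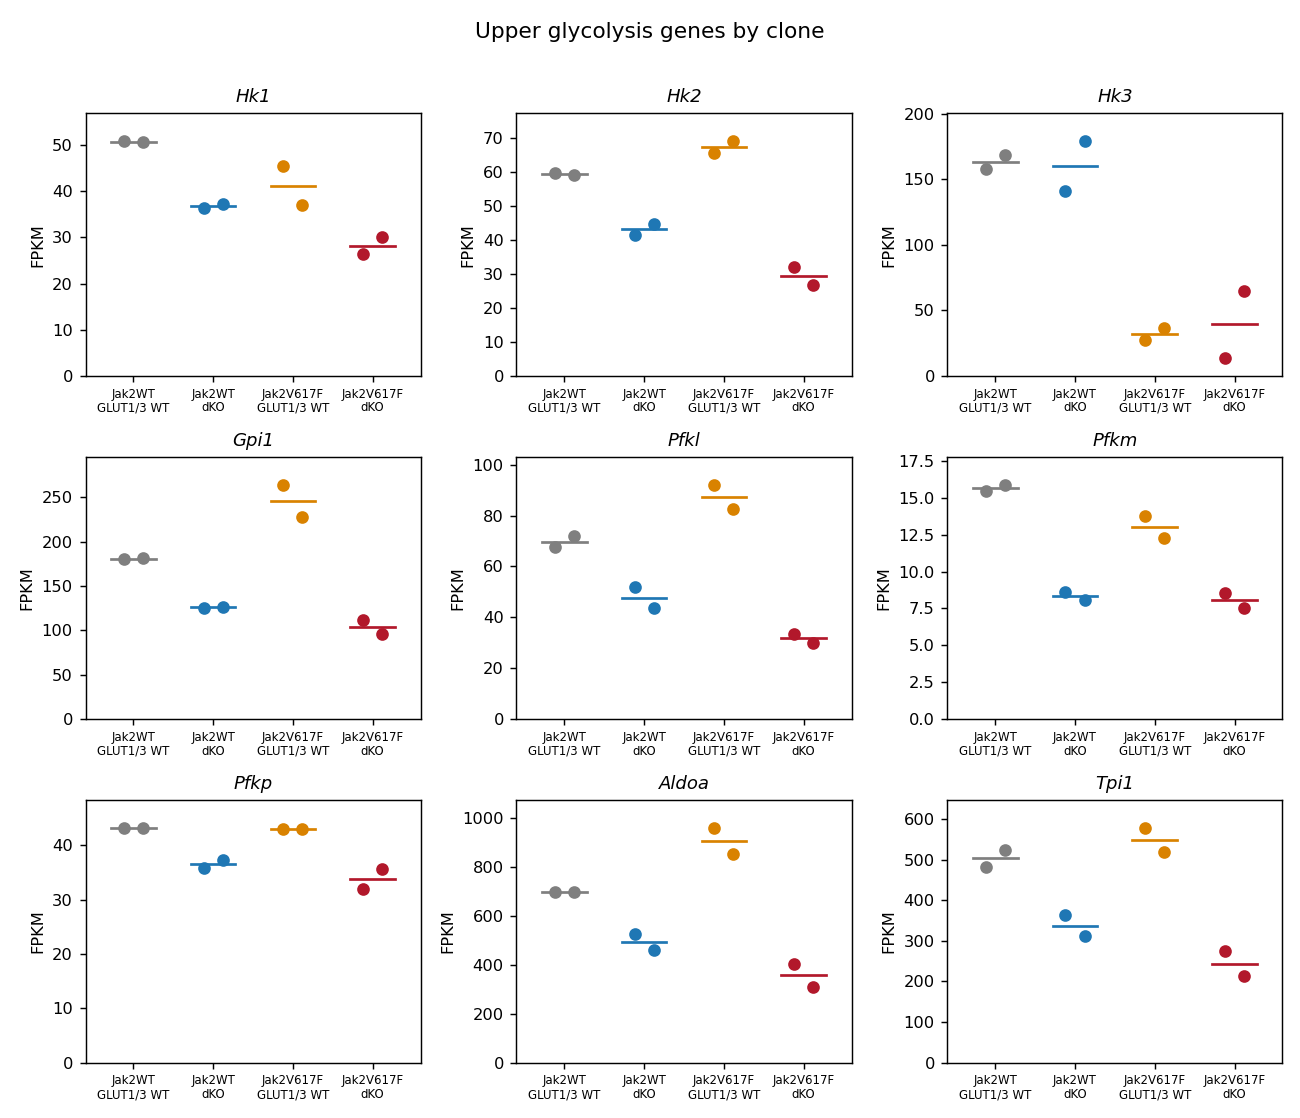
FPKM (vertical axes, linear and starting at 0) of 9 upper glycolysis genes in the 4 groups, with 1 point per clone and a line at the mean of the 2 clones. Aldoa, Gpi1, Pfkl, Tpi1 and Hk2 were lowest in both Jak2V617F dKO clones (Aldoa at 405 and 311 FPKM), whereas Hk3 was split by the Jak2 background.

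Stretches of promoter are shown for the 4 members that were lower in a dKO comparison and hold the letters ACGTG, the core of the HIF-1 response element, upstream of their start site. They come from GRCm39, the build of the deposited table, with start sites from GENCODE vM39, and each is the gene's strand read 5′ to 3′ with the ACGTG match nearest to the start site, on either strand, in capitals (in Pfkp the whole CACGTG).
Aldoa, chr7:126398528-126398572, reverse strand: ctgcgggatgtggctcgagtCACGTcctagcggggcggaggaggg
Hk2, chr6:82751463-82751507, reverse strand: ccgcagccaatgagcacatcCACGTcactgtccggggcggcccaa
Pfkm, chr15:98006088-98006132, forward strand: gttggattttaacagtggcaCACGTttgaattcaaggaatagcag
Pfkp, chr13:6699099-6699143, reverse strand: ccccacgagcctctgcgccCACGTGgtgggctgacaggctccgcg
Counted from the start site, the match begins at base -126 in Aldoa, -35 in Hk2, -216 in Pfkm and -153 in Pfkp, where it overlaps its own reverse complement in the E-box CACGTG, a motif bound by Myc and its relatives. In windows from 250 bases before to 50 bases after the start site, ACGTG on either strand was found in 5 of the 11 rows, the fifth being Hk3, against 20.7% of 21770 protein-coding promoters. GCGTG was found in 4 rows (Hk1, Pfkm, Pfkp and the second Aldoa row) against 37.0% of promoters, and CACGTG in Pfkp against 7.81%. None of the 3 motifs lay in the windows of Gpi1, Pfkl, Tpi1 or Aldoc, which says only that these letters are not in those windows.

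The first comparison asked how the enzymes of upper glycolysis differed between dKO and GLUT1/3 WT clones with Jak2V617F. Of the 10 rows tested 8 were lower in dKO clones, where 16.2% of all tested genes were lower, and 0 were higher, where 13.7% of all tested genes were higher (limma, Benjamini-Hochberg adjusted p under 0.05). The second Aldoa row was the 1 row higher at an unadjusted p under 0.05, and voom on the recovered reads called 8 lower and 0 higher. After scaling to equal library totals, 1452 of all genes were lower and 2192 higher, and with voom 1617 and 2344, where the deposited scaling gave 1919 and 1614. The median log2 fold change of the 10 rows was -0.90, against -0.02 over all genes tested. The second Aldoa row, the only row above 0 (0.56), raised this median. The lower genes covered every step: the hexokinases Hk1 and Hk2, Gpi1, all 3 phosphofructokinase subunits, Aldoa and Tpi1.

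Among the hexokinases, Hk2 (chr6:82702006-82751435, reverse strand) was at 65.5 and 69.0 FPKM in GLUT1/3 WT and at 32.2 and 26.9 FPKM in dKO clones, which did not overlap. Its log2 fold change was -1.17 ± 0.10 (SE, 2 clones a group, adjusted p = 0.00055). Hk1 (chr10:62104634-62215687, reverse strand) was at 45.5 and 36.9 FPKM in GLUT1/3 WT and at 26.4 and 30.1 FPKM in dKO clones. The change in Hk1 was the smaller one, at -0.52 ± 0.11 (adjusted p = 0.0134), and its adjusted p was 0.0535 without GLUT1/3 WT clone 1 and 0.0585 without dKO clone 1. Hk3 (chr13:55153798-55169198, reverse strand) was at 27.2 and 36.9 FPKM in GLUT1/3 WT and at 14.0 and 64.7 FPKM in dKO clones. The dKO clones of Hk3 thus lay on either side of the GLUT1/3 WT clones, and the fitted change was -0.06 ± 0.58 (adjusted p = 0.956). Without dKO clone 1 the change in Hk3 was 1.01 (adjusted p = 0.0205) and without dKO clone 3 it was -1.12 (adjusted p = 0.0138), so that 1 clone decided its sign, and scaling to the same total also turned it (0.035).

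Gpi1 (chr7:33900755-33929761, reverse strand), the isomerase that follows, was at 264 and 227 FPKM in GLUT1/3 WT and at 112 and 95.5 FPKM in dKO clones. The mean of the dKO clones was 42.2% of the GLUT1/3 WT mean, a log2 fold change of -1.24 ± 0.11 (adjusted p = 0.00055). Pfkl (chr10:77822781-77845917, reverse strand), the liver-type subunit of phosphofructokinase, was at 92.1 and 82.7 FPKM against 33.5 and 30.1 FPKM. At 36.4% of the GLUT1/3 WT mean, this was the largest fall among these rows, with a log2 fold change of -1.43 ± 0.11 (adjusted p = 0.000429). Pfkm (chr15:97990470-98030332, forward strand), the muscle-type subunit, was at 13.8 and 12.3 FPKM against 8.54 and 7.55 FPKM, a change of -0.63 ± 0.09 (adjusted p = 0.00312). Pfkp (chr13:6629804-6698813, reverse strand), the platelet-type subunit, was at 42.9 and 43.0 FPKM against 32.1 and 35.7 FPKM. Its change of -0.34 ± 0.08 (adjusted p = 0.0186) was the smallest of the 8, and the call was lost without either GLUT1/3 WT clone (adjusted p = 0.0634 and 0.0592), without dKO clone 1 (0.0671), after scaling to the same total (0.0646) or in a fit of only the groups compared (0.0889). The last fit also lost Hk1 (0.0714).

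Aldoa (chr7:126394406-126399923, reverse strand), the aldolase that splits fructose 1,6-bisphosphate, was at 959 and 854 FPKM in GLUT1/3 WT and at 405 and 311 FPKM in dKO clones with Jak2V617F. The change was -1.35 ± 0.14 (adjusted p = 0.000956). Tpi1 (chr6:124787549-124791259, reverse strand), triosephosphate isomerase, was at 578 and 519 FPKM against 276 and 212 FPKM, a change of -1.17 ± 0.14 (adjusted p = 0.00171). In Pfkl, Aldoa, Gpi1, Tpi1 and Hk2, the 5 genes that fell by more than 1 on the log2 scale, the groups did not overlap, and leaving out any 1 library kept an adjusted p of at most 0.0131. In all, dKO clones lay wholly below GLUT1/3 WT clones in 8 of the 10 rows, against 34.4% of all genes tested.

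The same comparison was made with Jak2WT. Of the 10 rows 6 were lower in dKO clones (6.06% of all tested genes were lower) and 0 were higher (7.62% of all tested genes were higher), with 9 lower and 0 higher at an unadjusted p under 0.05 and 8 and 0 by voom. The median log2 fold change was -0.51, against 0.01 over all genes. Scaling to the same total gave 1378 genes lower and 706 higher over all genes, and voom 1587 and 1018, against 716 and 901 with the deposited scaling. Pfkm changed most, from 15.4 and 15.9 FPKM in GLUT1/3 WT to 8.63 and 8.10 FPKM in dKO clones (log2 fold change -0.83 ± 0.09, adjusted p = 0.0047). Tpi1 was at 482 and 525 FPKM against 365 and 311 FPKM, a change of -0.58 ± 0.14 (adjusted p = 0.0411). Pfkl was at 67.6 and 71.8 FPKM against 51.9 and 43.8 FPKM, a change of -0.54 ± 0.11 (adjusted p = 0.0228).

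Gpi1 was at 181 FPKM in both GLUT1/3 WT clones with Jak2WT and at 126 FPKM in both dKO clones, a change of -0.52 ± 0.11 (adjusted p = 0.0235). Hk2 was at 59.8 and 59.1 FPKM against 41.4 and 44.8 FPKM (-0.46 ± 0.10, adjusted p = 0.0279), and Hk1 was at 50.8 and 50.6 FPKM against 36.3 and 37.2 FPKM (-0.45 ± 0.11, adjusted p = 0.04). The groups did not overlap in any of these 6 genes. In all, dKO clones lay wholly below GLUT1/3 WT clones in 9 of the 10 rows, against 32% of all genes tested. Aldoa, at 696 FPKM in both GLUT1/3 WT clones and at 526 and 459 FPKM in dKO clones, did not pass the threshold (-0.50 ± 0.14, adjusted p = 0.0558), and nor did Pfkp, at 43.1 and 43.2 FPKM against 35.8 and 37.3 FPKM (-0.23 ± 0.08, adjusted p = 0.0912). Aldoa did pass under 5 of the 9 alternatives that used every library (adjusted p = 0.00763 to 0.0464), and Pfkp passed after scaling to the same total (0.0378) and with voom (0.0285). Hk3 was at 158 and 169 FPKM against 141 and 179 FPKM, and these overlapped (-0.04 ± 0.58, adjusted p = 0.972). Without any 1 of the 4 Jak2WT libraries only Pfkm stayed under the threshold, with an adjusted p of at most 0.0454, while between 36 and 98 of all 11818 genes were then called lower. With no filter on low values only Pfkm was called as well, and without the trend Tpi1 and Hk1 were lost (adjusted p = 0.0531 and 0.054).

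**Figure D2:**
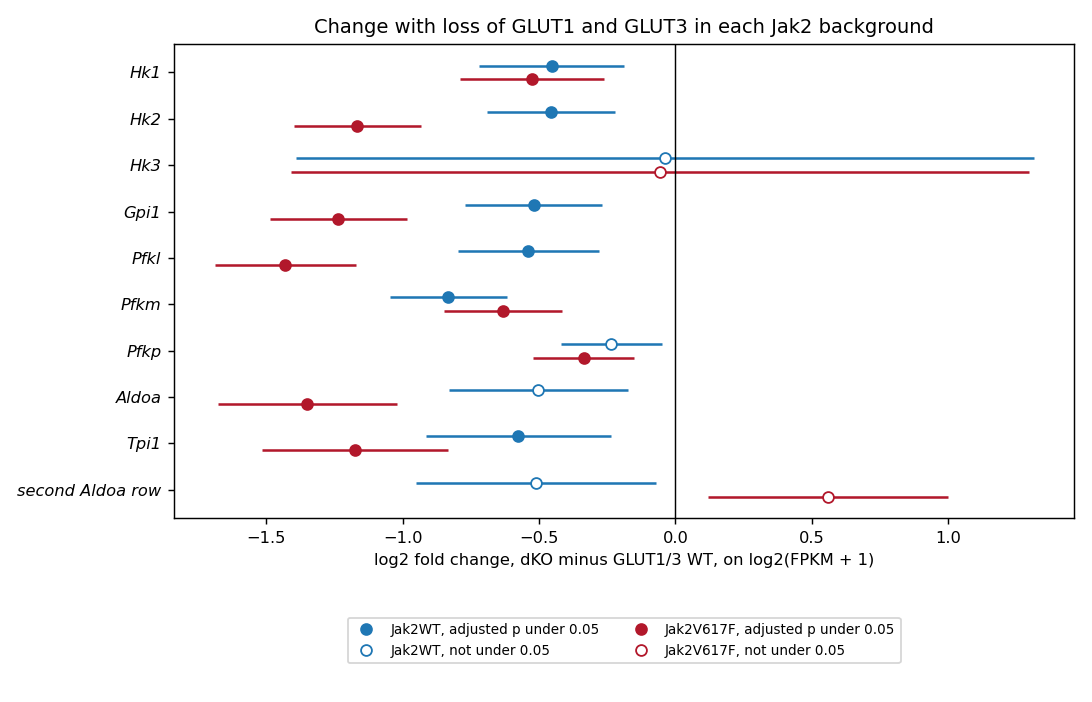
Log2 fold change between dKO and GLUT1/3 WT clones on log2(FPKM + 1) for the 10 rows tested, with bars for 95% confidence intervals from limma, blue for Jak2WT and red for Jak2V617F, and filled points for an adjusted p under 0.05. Pfkl, Aldoa, Gpi1, Hk2 and Tpi1 lie further below 0 with Jak2V617F (Pfkl at -1.43 against -0.54), and of these 5 only the intervals of Tpi1 overlap. The intervals of Hk1, Pfkm and Pfkp overlap as well, and those of Hk3 span 0.

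The difference between the backgrounds was tested itself, as the interaction of background and dKO. Of the 10 rows 4 fell further with Jak2V617F (5.91% of all tested genes had a negative interaction called) and 1 had a positive one (4.72% of all tested genes). The positive one was the second Aldoa row, whose value is a description only. Scaling to the same total moved the median over all genes by 0.16 on the log2 scale and gave 393 negative and 1177 positive calls, and voom moved it by 0.15 and gave 575 and 1321, against 698 and 558 with the deposited scaling. The 4 were Pfkl (-0.89 ± 0.16 on the log2 scale, adjusted p = 0.0188), Hk2 (-0.71 ± 0.14, adjusted p = 0.027), Gpi1 (-0.72 ± 0.15, adjusted p = 0.0314) and Aldoa (-0.85 ± 0.20, adjusted p = 0.0397). Tpi1 did not pass (-0.60 ± 0.20, adjusted p = 0.104, 95% interval -1.08 to -0.12). For Hk1 the difference was -0.07 (interval -0.44 to 0.30), for Pfkp -0.10 (-0.36 to 0.16) and for Pfkm 0.20 (-0.10 to 0.51). Differences within these intervals were not excluded. The signs for Hk1 and Pfkp turned with libraries scaled to the same total (0.12 and 0.087) and with voom (0.081 and 0.050). Fits without 1 library gave between 0 and 5 negative calls: 0 without either Jak2WT GLUT1/3 WT clone, without Jak2WT dKO clone 1 or without Jak2V617F GLUT1/3 WT clone 1, 1 without Jak2WT dKO clone 3, 2 without Jak2V617F GLUT1/3 WT clone 3 or Jak2V617F dKO clone 3, and 5 without Jak2V617F dKO clone 1. Over all genes these fits gave between 3 and 754 negative calls, against 698 with every library. With no filter on low values the 4 had adjusted p of 0.0605 to 0.164, Hk2 was lost after scaling to the same total (0.0656) and Aldoa without the trend (0.0509). In the fits without 1 library the 4 estimates lay between -1.04 and -0.58. Under the alternatives that used every library, the estimates nearest 0 were -0.52 for Hk2, -0.52 for Gpi1, -0.65 for Aldoa and -0.70 for Pfkl.

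The effect of the Jak2 background was compared within each GLUT genotype. These comparisons use the same libraries as those above, so their values are given for themselves. Among GLUT1/3 WT clones 1 of the 10 rows was higher with Jak2V617F (15.3% of all tested genes were higher) and 2 were lower (14.9% of all tested genes were lower). The 2 lower rows were Hk3 and the second Aldoa row, whose value is a description only. Scaling to the same total moved the median over all genes by -0.13 and gave 2930 genes lower and 1223 higher, and voom moved it by -0.11 and gave 2655 and 1399, against 1765 and 1812 with the deposited scaling. Gpi1 was the higher one, at 264 and 227 FPKM against 181 FPKM in both Jak2WT clones (log2 fold change 0.44 ± 0.11, adjusted p = 0.0207). Aldoa (0.38 ± 0.14, adjusted p = 0.0801), Pfkl (0.32 ± 0.11, adjusted p = 0.0641) and Hk2 (0.17 ± 0.10, adjusted p = 0.224) did not pass. For Tpi1 the clones overlapped (0.12 ± 0.14, adjusted p = 0.555), and its sign turned when libraries were scaled to the same total (-0.031). Hk1 (-0.30 ± 0.11, adjusted p = 0.0832), Pfkm (-0.25 ± 0.09, adjusted p = 0.0763) and Pfkp (-0.01 ± 0.08, adjusted p = 0.957) did not pass either. At an unadjusted p under 0.05 4 rows were lower and 3 higher, and by voom 4 and 1. Both Hk1 and Pfkm were called lower after scaling to the same total (adjusted p = 0.0109 and 0.0081) and by voom (0.00848 and 0.0121). The Jak2V617F clones lay wholly above the Jak2WT clones in 4 rows (35.8% of all genes tested) and wholly below in 5 rows, Hk1, Pfkm and Pfkp among them (33.6% of all genes tested). The Gpi1 call was lost without either Jak2WT GLUT1/3 WT clone (adjusted p = 0.0961 and 0.0989) or without Jak2V617F GLUT1/3 WT clone 1 (0.095), and with no filter on low values the calls of Gpi1 and Hk3 were lost (adjusted p = 0.0611 and 0.0893).

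Hk3, the hexokinase of myeloid cells, showed the largest difference of any row between the backgrounds. It was at 158 and 169 FPKM with Jak2WT and at 27.2 and 36.9 FPKM with Jak2V617F among GLUT1/3 WT clones (-2.33 ± 0.58, adjusted p = 0.0211). Among dKO clones it was at 141 and 179 FPKM against 14.0 and 64.7 FPKM (-2.35 ± 0.58, adjusted p = 0.033). All 4 Jak2V617F clones therefore lay below all 4 Jak2WT clones, whatever the GLUT genotype. The calls were sensitive to single libraries: among GLUT1/3 WT clones the adjusted p was 0.0578 to 0.0991 without any 1 of the 4 libraries compared, and among dKO clones it was 0.0502 to 0.139 without any 1 library other than the Jak2V617F dKO clones. Without those the log2 fold change was -1.28 (without clone 1, adjusted p = 0.0184) and -3.41 (without clone 3, adjusted p = 0.000544). The mast cell and basophil marker Cpa3 moved with Hk3, from between 50.8 and 100.5 FPKM in Jak2WT to at most 1.67 FPKM in Jak2V617F clones. Of the 5 markers of these cells, summed at 51.3 to 102 FPKM in Jak2WT and 0.338 to 2.12 FPKM in Jak2V617F clones, the other 4 did not exceed 0.696 FPKM, and Fcer1a, Mcpt8 and Ms4a2 were at 0 in all Jak2V617F clones. The myeloid marker Cd33 was also lower with Jak2V617F, at 1.94 to 3.73 FPKM in Jak2WT and 0.0518 to 0.592 FPKM in Jak2V617F clones, of which dKO clone 3 was the highest, as for Hk3. Csf2rb was lower with Jak2V617F too, at 190 and 162 FPKM against 127 and 131 FPKM among GLUT1/3 WT clones. Among dKO clones it was at 150 and 114 FPKM against 55.4 and 48.9 FPKM. Spi1 went the other way among GLUT1/3 WT clones, at 16.5 and 17.6 FPKM with Jak2WT and 19.8 and 19.1 FPKM with Jak2V617F (adjusted p = 0.301). Among dKO clones Spi1 was lower with Jak2V617F, at 17.4 and 15.7 FPKM against 11.1 and 14.4 FPKM. For Prtn3 the clones overlapped in both GLUT genotypes. These 4 of the 9 myeloid markers were tested. The part of such cells in the result was not tested. Unc5a, on the opposite strand across Hk3, was at most 2.17 FPKM.

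Among dKO clones 3 of the 10 rows were lower with Jak2V617F (9.96% of all tested genes were lower) and 0 were higher (7.12% of all tested genes were higher), with 7 and 0 at an unadjusted p under 0.05 and 6 and 0 by voom, which called 1344 of all genes lower and 1342 higher. Beside Hk3 these were Pfkl, at 33.5 and 30.1 FPKM against 51.9 and 43.8 FPKM with Jak2WT (-0.57 ± 0.11, adjusted p = 0.0145), and Hk2, at 32.2 and 26.9 FPKM against 41.4 and 44.8 FPKM (-0.54 ± 0.10, adjusted p = 0.0129). Aldoa (-0.47 ± 0.14, adjusted p = 0.0611), Tpi1 (-0.48 ± 0.14, adjusted p = 0.0648), Hk1 (-0.37 ± 0.11, adjusted p = 0.0646) and Gpi1 (-0.28 ± 0.11, adjusted p = 0.121) did not pass. Of these, Aldoa and Tpi1 were called lower after scaling to the same total (adjusted p = 0.0487 and 0.0489) and, with Hk1, by voom (0.0254, 0.0275 and 0.0324). The Jak2V617F clones lay wholly below the Jak2WT clones in 8 of the 10 rows, against 33.1% of all genes tested. Without Jak2WT dKO clone 1 there were 0 calls, without Jak2WT dKO clone 3 only that of Pfkl, and without Jak2V617F dKO clone 1 there were 5, while over all genes 348, 480 and 677 were called lower in these fits, against 1177. The Pfkl call was also lost without Jak2V617F dKO clone 3 (adjusted p = 0.0515), and a fit of only the groups compared lost those of Hk3 and Hk2 (0.0969 and 0.0543). With no filter on low values that of Hk3 was lost (0.119).

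For Aldoa, Gpi1, Pfkl and Hk2 the 4 groups came in the same order with no overlap between neighbours: Jak2V617F GLUT1/3 WT, Jak2WT GLUT1/3 WT, Jak2WT dKO and Jak2V617F dKO, from high to low. Taken singly, these steps were free of overlap in 35.8%, 32% and 33.1% of all genes tested. The share of all genes with the whole order was not computed. In Tpi1 the order was the same, but the upper pair of groups overlapped. In Hk1 the Jak2WT GLUT1/3 WT clones were highest and the Jak2V617F GLUT1/3 WT and Jak2WT dKO clones overlapped. In Pfkm both dKO groups overlapped at the bottom. In Pfkp the GLUT1/3 WT groups lay side by side between 42.9 and 43.2 FPKM, above both dKO groups.

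The make-up of each enzyme by isoform was compared on FPKM, which is per length and can be added over genes. In Jak2WT GLUT1/3 WT clones Hk3 made up 59.7% ± 1.19 (SD, n = 2) of the summed hexokinase FPKM, Hk2 21.7% ± 0.69 and Hk1 18.5% ± 0.49. In Jak2V617F GLUT1/3 WT clones Hk2 was the leading isoform with 47.9% ± 0.64, followed by Hk1 with 29.4% ± 5.02 and Hk3 with 22.7% ± 4.37. The hexokinase sum was 269 and 278 FPKM in the former and 138 and 143 FPKM in the latter, so that the sum was lower with Jak2V617F while Hk2 itself did not pass in either direction. In Jak2WT dKO clones Hk3 took 64.5% and 68.6% of a sum of 219 and 261 FPKM. The Jak2V617F dKO clones differed from each other: Hk2 led in clone 1 with 44.3% and Hk3 with 19.3%, while in clone 3 Hk3 led with 53.2% and Hk2 had 22.1%.

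**Figure D3:**
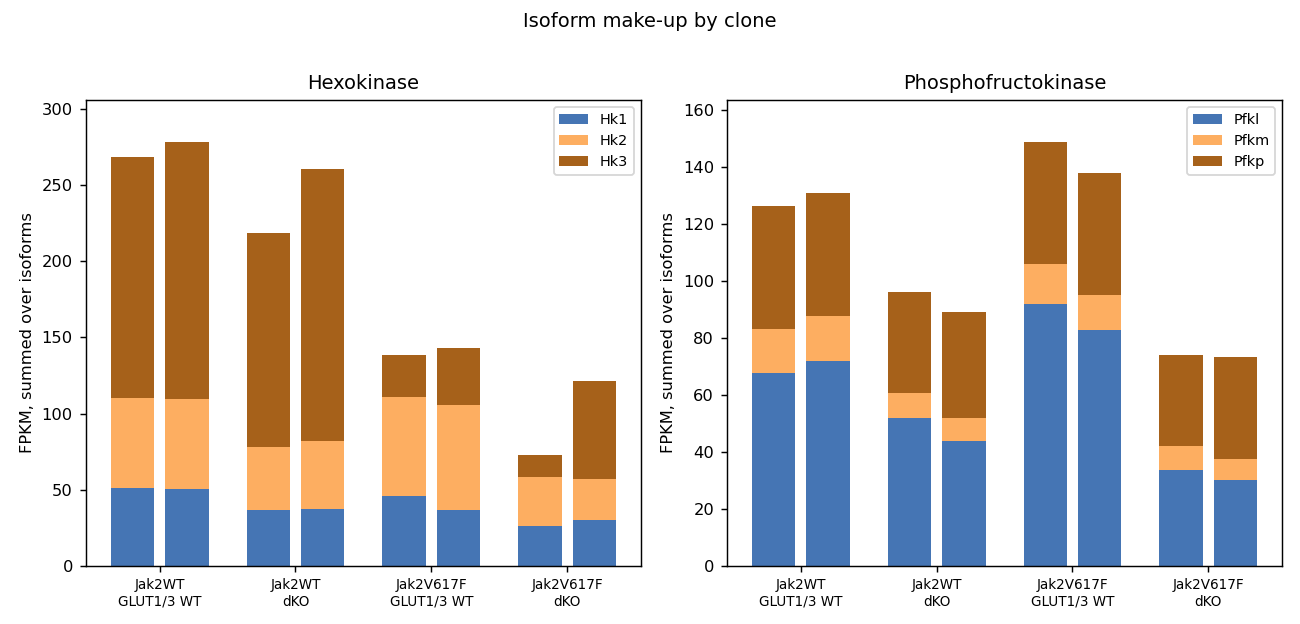
Stacked FPKM (vertical axis, starting at 0) of the hexokinase isoforms Hk1, Hk2 and Hk3 and of the phosphofructokinase subunits Pfkl, Pfkm and Pfkp, with 1 bar per library, clone 1 to the left of clone 3 in each group. Hk3 is the largest segment in the 4 Jak2WT libraries and in Jak2V617F dKO clone 3 (53.2%), and the phosphofructokinase bars are shortest in the Jak2V617F dKO clones (74.1 and 73.3 FPKM).

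For phosphofructokinase the Pfkl share was 54.2% ± 0.92 in Jak2WT GLUT1/3 WT, 51.5% ± 3.42 in Jak2WT dKO, 60.9% ± 1.37 in Jak2V617F GLUT1/3 WT and 43.1% ± 2.96 in Jak2V617F dKO clones (SD, n = 2 each). The Pfkp share was 45.9% ± 3.82 in Jak2V617F dKO and 30.0% ± 1.63 in Jak2V617F GLUT1/3 WT clones, and in the dKO clones Pfkl led in clone 1 (45.2% against 43.2% for Pfkp) and Pfkp in clone 3 (48.7% against 41.1% for Pfkl). Pfkm stayed between 8.88% and 12.2% of the sum in every library. The sum of the 3 subunits was 126 and 131 FPKM in Jak2WT GLUT1/3 WT, 96.3 and 89.2 in Jak2WT dKO, 149 and 138 in Jak2V617F GLUT1/3 WT and 74.1 and 73.3 in Jak2V617F dKO clones. In aldolase the Aldoc share did not exceed 0.0827% in any library.

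Shares and sums were tested over all 8 libraries with an exact two-sided permutation test within strata, in which 36 arrangements allow no p below 0.0556, so that no call at 0.05 was possible. Between dKO and GLUT1/3 WT clones the mean difference was -38.6 FPKM in the hexokinase sum, -52.7 FPKM in the phosphofructokinase sum and -376 FPKM in the aldolase sum, each with this smallest exact p of 0.0556. The same p was found for the Hk2 share (-9.18 percentage points) and the Pfkp share (10.9 percentage points), although the difference in the Hk2 share was -14.7 without Jak2V617F dKO clone 1 and -3.64 without Jak2V617F dKO clone 3. Between the Jak2 backgrounds it was found for the shares of Hk1 (13 percentage points, Jak2V617F minus Jak2WT), Hk2 (20.6) and Hk3 (-33.6) and for the hexokinase sum (-138 FPKM). The remaining 11 of 20 tests gave an exact p of at least 0.111, and the smallest value after Benjamini-Hochberg adjustment over the 20 was 0.123.

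Other genes of glucose metabolism were read from lists of the pathway. Of 16 lower glycolysis genes 9 were tested, of which 5 were lower and 0 higher in dKO clones with Jak2V617F, beside 16.2% and 13.7% of all genes (5 lower and 1 higher both at an unadjusted p under 0.05 and by voom), with a median log2 fold change of -0.96. These were Pgk1 (-1.63), Pgam1 (-1.58), Pkm (-1.31), Ldha (-1.19) and Eno1 (-0.96), which encode enzymes from phosphoglycerate kinase to lactate dehydrogenase. With Jak2WT 4 of the 9 were lower and 0 higher, beside 6.06% and 7.62% of all genes (6 lower and 1 higher at an unadjusted p under 0.05, 6 and 0 by voom), at a median of -0.55: Pgk1, Pgam1, Pkm and Bpgm. Gapdh was listed at 5.28 to 18.2 FPKM, beside 521 to 2026 FPKM for its neighbour in the pathway Pgk1, and did not pass in either background. How reads that match several places in the genome were counted is not given in the sources used here, so levels of genes with many copies, Aldoa and Tpi1 among them, are uncertain to that extent.

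Of 12 further genes of the upper pathway, among them the regulators of fructose 2,6-bisphosphate and the enzymes that reverse its steps, 6 were tested and 0 were called lower in either background. In dKO clones with Jak2V617F 1 was higher, Pfkfb1 (0.56 ± 0.14, at 0.743 to 1.70 FPKM over all libraries), where 13.7% of all genes were higher, and 0 were lower. At an unadjusted p under 0.05 and by voom 3 were higher and 0 lower. With Jak2WT Adpgk, which phosphorylates glucose with ADP (0.48 ± 0.09), and Tigar, a fructose-2,6-bisphosphatase (0.67 ± 0.15), were higher and 0 were lower, beside 7.62% and 6.06% of all genes, with 1 lower at an unadjusted p under 0.05 and 1 by voom. Hkdc1, a further hexokinase, did not exceed 0.130 FPKM. The difference between this list and the 10 rows was not tested.

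Of 17 genes at branches from these intermediates 14 were tested, and with Jak2V617F 5 were lower and 2 higher in dKO clones (4 and 3 by voom), beside 16.2% and 13.7% of all genes, at a median of -0.11. The largest falls were in Pgm1 (-1.72 ± 0.10) and Gys1 (-1.61 ± 0.12), phosphoglucomutase and glycogen synthase on the way from glucose 6-phosphate to glycogen, and with Jak2WT both were lower as well (-1.03 and -1.08). G6pdx, the entry enzyme of the pentose phosphate pathway, was at 30.9 and 35.1 FPKM in dKO and at 36.2 and 29.5 FPKM in GLUT1/3 WT clones with Jak2V617F (0.01 ± 0.12, adjusted p = 0.966). Of the regulators, Hif1a (-0.46 ± 0.08), Arnt (-0.70 ± 0.10) and Myc (-0.47 ± 0.10) were lower and Mlx (0.40 ± 0.08) was higher in dKO clones with Jak2V617F. These are 3 lower and 1 higher of 5 tested, beside 16.2% and 13.7% of all genes. With Jak2WT 1 of the 5, Mlx, was higher (7.62% of all genes) and 0 were lower, also at an unadjusted p under 0.05 and by voom. Myc, at an unadjusted p under 0.05 but not past the adjusted threshold, had a log2 fold change of 0.25 there (adjusted p = 0.126).

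**Figure D4:**
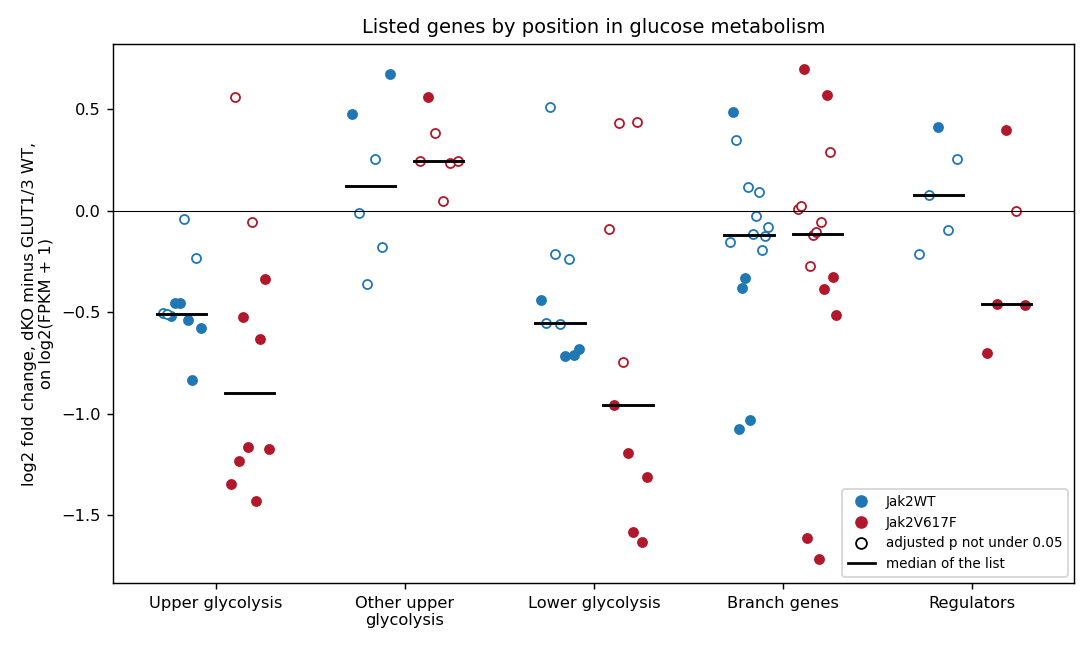
Log2 fold change between dKO and GLUT1/3 WT clones on log2(FPKM + 1) for each tested gene of 5 lists, blue for Jak2WT and red for Jak2V617F, with filled points for an adjusted p under 0.05 and a black line at each list's median. The medians of the upper and lower glycolysis lists with Jak2V617F lie at -0.90 and -0.96, and that of the other upper pathway genes at 0.24. The upper list includes the second Aldoa row (0.56), which raises its median.

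The second row named Aldoa (ENSMUSG00000114515, chr7:126399962-126408280, reverse strand) lies just upstream of the main one. It was at 1.36 and 1.59 FPKM in Jak2WT GLUT1/3 WT, 0.657 and 0.813 in Jak2WT dKO, 0.584 and 0.210 in Jak2V617F GLUT1/3 WT and 0.900 and 1.19 in Jak2V617F dKO clones, from 5 to 43 reads. It was counted above as lower with Jak2V617F among GLUT1/3 WT clones (-0.84 on the log2 scale) and as the positive interaction (1.07). The filter kept it through both Jak2WT GLUT1/3 WT clones and Jak2V617F dKO clone 3, the libraries that give these differences, so neither is read as a test, and filtering on mean FPKM removed the row. The interaction call was also lost in every fit without 1 library. In GENCODE vM39 this identifier is named Gm57854 and spans the main Aldoa gene as well, so reads of one may have been counted to the other.

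The table listed 12 retrogene and pseudogene rows of the members, of which 9 were at 0 in all libraries. Since the handling of reads that match several places is not given, a copy at 0 does not show that no reads came from it. The most abundant, Tpi-rs11, was at 5.29 to 13.7 FPKM, against at least 212 FPKM for Tpi1. Genes on the opposite strand overlap Pfkp (Pitrm1, 22.3 to 29.3 FPKM) and Pfkm (Senp1, 5.62 to 8.97 FPKM), and the strand setting of the counting is not given in the sources used here, so reads from the overlaps cannot be told apart. The other opposite-strand neighbours of Hk1, Hk2, Hk3, Aldoa and Tpi1 did not exceed 3.69 FPKM.

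Across the 8 libraries Aldoa, Tpi1, Gpi1, Pfkl and Hk2 followed one another closely, with Pearson's r of log2(FPKM + 1) between 0.95 and 0.99. Hk3 had r between -0.11 and 0.55 with the other 8 main rows. The libraries share their group structure, so these are descriptions over 8 points and not tests. Outside the list, the genes most like each member by the same measure were Ldha and Hibadh for Aldoa (0.994 each), Fam162a and Pgam1 for Tpi1 (0.993 each), Pcnx (0.990) and Cmtm6 (0.988) for Gpi1, and Hibadh and Egln1 for Pfkl (0.997 each). For Hk2 they were Kdm7a (0.991) and Kcnq5 (0.987), for Hk1 Rasa3 and Grb2 (0.988 each), for Hk3 Dtnbp1 (0.992) and Rnft1 (0.983), for Pfkp mt-Rnr1 and Cdc27 (0.989 each), and for Pfkm Nkiras2 (0.993) and Epm2a (0.986). For the second Aldoa row they were Pgp (0.988) and Snrnp40 (0.981).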

How the data were processed

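The authors cleaned reads with fastp 1.0.1, aligned them to mm39 (GRCm39) with HISAT2 2.2.1 and counted them with featureCounts 2.0.6 (versions from the submitters' processing notes), and deposited FPKM values for 8 libraries. The annotation, the strand setting and the total used for FPKM are not given in the sources used here. FPKM times gene length was a whole multiple of 1 step in each library for 100% of values within 0.01, so the reads on genes could be recovered. Libraries were grouped by their labels, and 0 columns were left out. Some listed genes and 1 feature of the cells are not reported here. Members and gene lists were chosen with earlier results of these data known. The named genes are all members, genes of the fixed pathway and marker lists, overlapping or related rows, and the 2 genes most like each member.

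A gene was tested where 2 or more libraries reached 1 FPKM (11818 genes). The test was limma (version 3.58.1, under R 4.3.3), applied to log2-transformed FPKM after adding 1, with 4 group means, a trended empirical Bayes step (4 residual and 3.34 prior degrees of freedom) and Benjamini-Hochberg adjustment over all genes at 0.05. Fold changes on this scale understate those of low genes. Exact tests of 2 clones against 2 cannot go below p = 0.33. Shares, promoters and figures were made with Python 3.11.15, pandas and matplotlib 3.10.9, and the gene test was tested on simulated data. Alternatives were a pseudocount of 0.1, other filters, no trend, other scalings, voom, fits of only the groups compared, clone number as a block, and fits without 1 library.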

Additional observations from a re-analysis of the deposited data

Results flagged for a closer look

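The change between dKO and GLUT1/3 WT clones differed between the Jak2 backgrounds for 5 rows by the interaction term of the limma fit. The difference (Jak2V617F minus Jak2WT, log2 scale) was -0.89 for Pfkl, -0.85 for Aldoa, -0.72 for Gpi1 and -0.71 for Hk2, and in neither background did the dKO and GLUT1/3 WT clones overlap in these 4. It was 1.07 for the second Aldoa row (ENSMUSG00000114515), which rests on 5 to 43 reads a library and passed the filter only through the libraries where it is high, so that its value is a description. Every 1 of the 5 calls was lost in at least 1 fit without a library.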

How the results depend on the processing

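Of 835 alternative values for single rows 679 kept their direction and side of the threshold, 103 were no longer past it, 32 came past it and 21 changed sign; of 342 for counts, shares and sums 288 stayed close, 49 moved and 5 changed sign. The causes were not tested. The number of rows higher in dKO clones with Jak2V617F was 1 without the trend and after scaling to equal totals, and 0 to 1 without 1 library. The number lower with Jak2WT was 1 with no filter on low values, where 312 of all genes were lower and 402 higher, and 1 to 7 without 1 library. Between the backgrounds among GLUT1/3 WT clones, the number lower was 1 with no filter or a filter on the mean, 4 with the same total or voom, and 0 to 2 without 1 library, and the number higher was 0 with no filter, 2 with the clone number as a replicate block, and 0 to 2 without 1 library. Among dKO clones the number lower was 5 with the same total, 6 with voom, 1 in a fit of only the groups compared and 0 to 5 without 1 library. For the interaction the number of negative calls was 0 with no filter and 0 to 5 without 1 library, and that of positive calls was 0 with no filter, the block, a pseudocount of 0.1 or the mean filter, and 0 to 0 without 1 library.

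With the same total, Hk3 changed sign in dKO clones with Jak2V617F (0.035) and Tpi1 between the backgrounds among GLUT1/3 WT clones (-0.031), and Pfkm did so among dKO clones with voom (0.0020). The interaction changed sign for Hk3 with the same total (0.17), median-ratio scaling (0.024) and voom (0.077), for Hk1 with the same total (0.12) and voom (0.081) and for Pfkp with the same total (0.087) and voom (0.050). Without 1 library, Hk3 ranged from -1.12 to 1.01 in dKO clones with Jak2V617F and from -0.21 to 0.13 with Jak2WT, Pfkm from -0.13 to 0.027 between the backgrounds among dKO clones, and the interaction from -1.08 to 1.05 for Hk3 and from -0.22 to 0.077 for Hk1. The Hk1 share in dKO clones then ranged from -3.89 to 1.94 percentage points, and between the backgrounds the Pfkl share ranged from -2.02 to 0.394 percentage points and the phosphofructokinase sum from -4.82 to 0.61 FPKM. With 1 clone left in a group, that clone was assumed to vary like the other groups.

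The clones share only a number: deviations of same-numbered clones correlated between -0.254 and 0.152. With the clone number as a replicate block, 8 rows were again lower in dKO clones with Jak2V617F, and with Jak2WT Hk1 was lost (adjusted p = 0.062) and Aldoa gained (adjusted p = 0.0399). A fit of only the groups compared called 853 genes lower and 764 higher in dKO clones with Jak2V617F, against 1919 and 1614. The number of the 10 rows lower there was 6 in that fit, 7 with the same total and 8 under the other 7 alternatives that used every library, and 6 to 9 without 1 library.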
